A study of Mus musculus with 6 samples.

Results

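Decorin and lumican, the products of Dcn and Lum, are small leucine-rich proteoglycans of the extracellular matrix. Both bind collagen fibrils and limit how thick the fibrils grow, and decorin also binds transforming growth factor-β and several receptor tyrosine kinases. In the heart both are made mainly by fibroblasts, the cells that lay down the matrix when the myocardium is injured. Described here are the levels of both mRNAs in the heart and blood of mice with heart failure (HF) and of control mice. The probes were those whose gene name in the mRNA profile table of the study is Dcn or Lum. In the section of that table held here both genes were found, as 2 of 3470 gene symbols, each with 1 of the 4093 named mRNA probes, on an array of 59729 probes in all. The Dcn probe (ASMM9PARTA027024) was assigned to transcript NM_001190451, 1 of 2 curated mRNAs of the gene, and the Lum probe (ASMM9PARTA028080) to NM_008524, the only curated mRNA of Lum. Neither probe had a second spot, and no second probe of either gene was named in that section, against which its signal could be checked.

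In the HF groups male C57BL/6J mice received the β-adrenergic agonist isoproterenol by subcutaneous injection at 40 mg/kg/day for 1 week, and the control groups were male C57BL/6J mice given saline for the same time. According to the methods, RNA of 5 mice per group was mixed, and each mixture of heart, whole blood or plasma was hybridised to 1 one-colour array. The methods also describe blood and plasma that were pooled from several mice before RNA was extracted, and how those pools relate to the 5 mice is not stated there. The mice were of a wild-type strain with no transgene, blood was taken by removal of the eyeball, and plasma was centrifuged and filtered before RNA was extracted. Each condition was therefore a single array, no comparison between HF and control has a replicate, and no test, p value or SD can be given. Every error below is the one that the scanner software estimates for a spot, combined over a pair of arrays where 2 arrays are compared. It covers the reading of the arrays and not the spread between mice.

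A probe counted as detected where its spot was flagged as well above the local background and not as an outlier, which held for 25.0% to 47.3% of the probes of each array. At most 0.974% of the 308 negative control spots of an array carried the same flag, although 1 negative control spot on the HF heart array reached a signal of 3195. Markers were checked against the tissue labels. All 16 cardiomyocyte probes were well above background on both heart arrays, and all 4 erythroid probes on both whole blood arrays. The 4 erythroid probes also passed this flag on both hearts and in control plasma, so the flag alone does not tell these tissues apart. The cardiomyocyte probe of Myh6 was brighter in whole blood than in heart, at 722% of its heart signal in control and 302% in HF mice. All 16 cardiomyocyte probes also passed this flag in the blood of HF mice, against 3 in that of control mice. The arrays were scanned in 2 sessions. Both hearts, HF whole blood and HF plasma were in one session, and control whole blood and control plasma in the other, so in blood the scan session and HF cannot be told apart. The heart comparison lay within a single session.

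The Lum signal was brightest in the heart. On the scale of the deposited, background-subtracted signal, Lum read 15644 ± 1564 in control heart and 17675 ± 1768 in HF heart, which was above 97.9% and 98.5% of all probes of the array, respectively. In whole blood it read 459 ± 46.2 in HF mice and 23.4 ± 12.4 in control mice, and the control value was not well above background. In plasma the order was the other way, with 86.9 ± 10.1 in control and 4.25 ± 4.26 in HF, where the probe was at the lowest value of the array. Lum was thus detected on 4 of the 6 arrays and was not detected in control whole blood or HF plasma. On those arrays many probes shared the lowest value, 29408 in control whole blood and 24746 in HF plasma. On each other array 1 probe held it. Each blood comparison of HF with control therefore sets an array with such a floor against one without.

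Dcn showed a flatter profile and was detected on all 6 arrays. Its signal was 2664 ± 266 in control heart, 2568 ± 257 in HF heart, 1761 ± 177 in whole blood of control mice, 1512 ± 151 in that of HF mice and 1768 ± 177 in control plasma. HF plasma stood apart at 95.9 ± 10.5, still 22.6 times the 95th percentile of the negative control spots of that array. That percentile was itself the lowest value of the array. The percentile rank of Dcn among all probes, which does not rest on the scaling between arrays, was between 93.7 and 96.7 on the other arrays and 86.3 in HF plasma. Neither probe was saturated on any array.

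**Figure D1:**
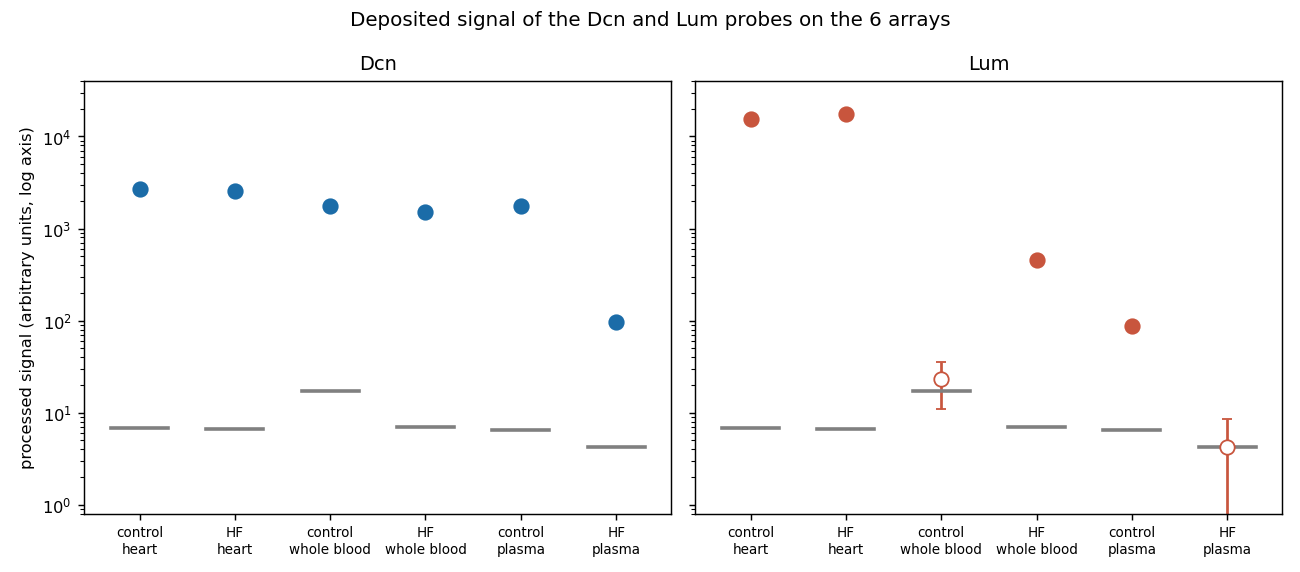
Deposited processed signal of the Dcn probe (left) and the Lum probe (right) on the 6 arrays, on a log axis in arbitrary units. Each point is 1 array of mixed RNA, filled where the spot was well above background and open where it was not, bars are the spot error given by the scanner software, and grey lines are the 95th percentile of the negative control spots of that array. Dcn lies between 1512 and 2664 on all arrays except HF plasma (95.9), and Lum lies at 15644 or more in heart and at 459 or less in blood and plasma.

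For comparisons between arrays, log2 signals were quantile normalized over the 6 arrays, which gives every array the same distribution of values. On this scale the Lum levels were 13.28 in HF heart, 12.63 in control heart, 9.65 in whole blood of HF mice and 6.79 in plasma of control mice, and each step between these neighbours was larger than its combined error. The values in control whole blood and HF plasma have no order, since neither was above background. For Dcn the order was HF whole blood (11.63), control plasma (10.98), control whole blood (10.60), HF heart (10.41), control heart (9.93) and HF plasma (7.73). The step from control whole blood to HF heart, 0.19, was smaller than its error of 0.20, and the other steps were larger than theirs.

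The comparison of HF heart with control heart asks how these mRNAs differ in the failing myocardium. Lum was 1.58-fold higher in HF heart, with a log2 difference of 0.66 ± 0.20, and Dcn was 1.40-fold higher, with a log2 difference of 0.49 ± 0.20. Both differences were larger than the combined spot error, and both were below the 2-fold threshold used for a call, so that 0 of the 2 probes were called in heart. Among all 20065 probes detected on both heart arrays, 13.9% were called higher and 12.9% lower (11.6% and 17.1% of 3019 named mRNA probes), the median difference was 0.02 and the upper quartile was 0.62. The Dcn difference lay above that of 70.2% of these probes and the Lum difference above that of 76.4%. In bulk tissue, a different number of fibroblasts and a different amount of RNA per fibroblast cannot be told apart.

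These heart values depended on how the arrays were scaled. As deposited, the ratio of HF to control signal was 0.964 for Dcn and 1.13 for Lum, and the median of the probes detected on both hearts was itself at -0.71 on the log2 scale. Relative to that median, Dcn was between 0.44 and 0.66 higher in HF heart and Lum between 0.57 and 0.89 higher under every scaling tried. All scalings that shift a whole array give the same value here by construction, 0.66 for Dcn and 0.89 for Lum, so they are not separate checks. With each array scaled to its 75th percentile the difference was 0.86 for Dcn and 1.09 for Lum, which takes Lum past the threshold, and with scaling to the median of probes detected on all 6 arrays it was 1.25 and 1.48, which takes both past it.

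**Figure D2:**
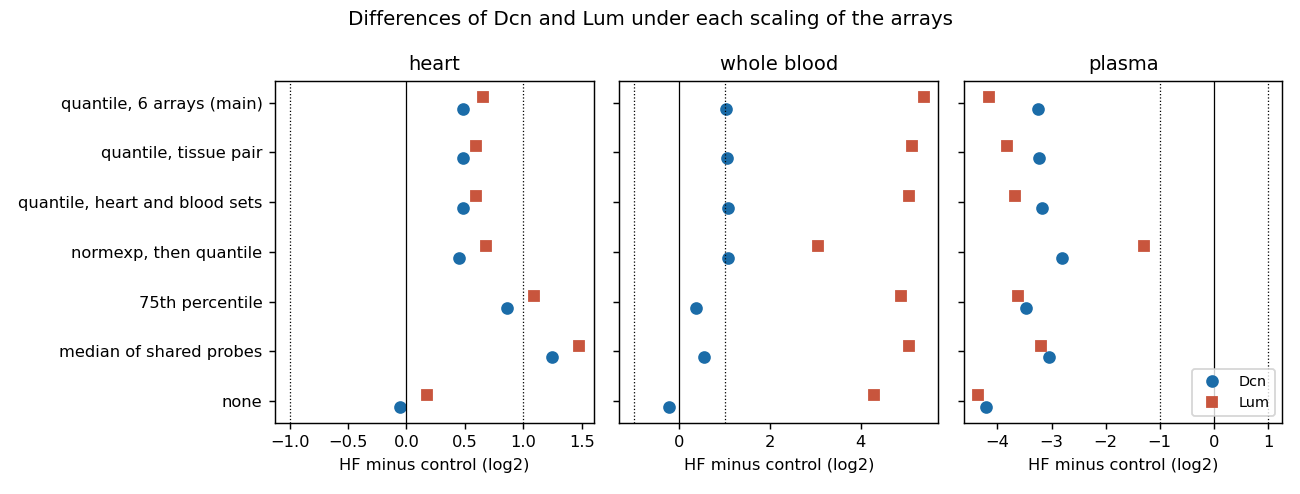
HF minus control on the log2 scale for Dcn (blue circles) and Lum (red squares) in heart, whole blood and plasma under 7 ways of scaling the arrays, 1 array per condition. Dotted lines mark a 2-fold difference. In plasma every value of both genes lies below -1, in whole blood every Lum value lies above 3, and the Dcn values in heart and whole blood lie on both sides of 0. Lum was not above background in control whole blood or in HF plasma, so its values there measure a signal against a background reading.

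The fibrillar collagen genes Col1a2 and Col3a1 and the activated fibroblast genes Ctgf and Acta2 differed more between the hearts than Dcn and Lum did, whereas the activated fibroblast gene Fap did not. Col3a1, a fibrillar collagen chain, was 5.36-fold higher in HF heart and Col1a2, a chain of type I collagen, 6.65-fold higher. The log2 difference of Col1a2 exceeded that of Dcn by 2.25 ± 0.29 and that of Lum by 2.07 ± 0.29, and the corresponding values for Col3a1 were 1.94 ± 0.29 and 1.76 ± 0.29. These differences between genes are taken within the same arrays and under quantile normalization also depend on where each probe lies in the distribution. Any scaling that shifts a whole array gives the values of the deposited signals, which were 2.23 and 2.005 for Col1a2 and 1.85 and 1.63 for Col3a1. The type IV collagen chains of basement membranes, Col4a1 and Col4a2, were close to the proteoglycans, at 0.56 and 0.57. Their differences from Dcn (0.07 ± 0.29 and 0.08 ± 0.29) and from Lum (-0.10 ± 0.29 and -0.09 ± 0.29) were within error.

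Over the list of collagens and their fibril partners, all 14 probes (12 of the 28 genes listed had a named probe) were detected on both hearts. The threshold was passed upward by 7 probes and downward by 2, with 5 in between and a median of 0.98, beside 13.9% upward and 12.9% downward over all probes. Without normalization between arrays 4 were upward and 4 downward. Eln, which encodes elastin, was 21.6-fold higher and Mgp, an inhibitor of matrix calcification, 2.86-fold higher. Pcolce, the enhancer of the protease that trims procollagen, was 2.67-fold higher. The 3 probes of Serpinh1, the collagen chaperone Hsp47, did not go together, at 1.83, -0.85 and -1.66. The lower calls in this list were 1 of those Serpinh1 probes and Hspg2, which encodes the basement membrane proteoglycan perlecan (2.45-fold lower).

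Among activated fibroblast markers, 3 of the 4 probes detected on both hearts were at least 2-fold higher and 1, Fap, was under 2-fold at 0.59. Over all probes detected on both hearts, 13.9% were called higher and 12.9% lower. Ctgf, a matricellular protein that decorin binds, was 26.4-fold higher, Acta2, the smooth muscle actin of myofibroblasts, 5.23-fold higher and Timp1, an inhibitor of matrix metalloproteinases, 2.21-fold higher. Postn, the matricellular protein periostin, had no signal above background in the control heart. HF heart exceeded control heart by at least 10.5-fold on the quantile scale, 7.36-fold on the deposited signals and 2.37-fold with normexp background correction. The Ctgf difference exceeded that of Dcn by 4.23 ± 0.29 and that of Lum by 4.06 ± 0.29 on the quantile scale. On the deposited signals, where Ctgf was 9.17-fold and Acta2 2.41-fold higher, the corresponding Ctgf values were 3.25 and 3.02. Of the 6 probes of fibroblast markers in general, the 2 collagens were called higher and the other 4 were under 2-fold, namely Lum, Fap, Dcn and Thy1, a surface glycoprotein, at -0.12.

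Within the family of small leucine-rich proteoglycans, Dcn and Lum lay above the median difference in heart, with only Bgn and Chad higher. Of its 17 genes, 9 had a named probe, with 11 probes in all, of which 10 were detected on both hearts. Of these 1 was called higher, 1 lower and 8 were under 2-fold, with a median of 0.30, which is near the 13.9% and 12.9% called over all probes. The call upward was Chad, chondroadherin of cartilage matrix, which read 10.46 in HF heart and 5.53 in control heart (30.4-fold). The call downward was Aspn, asporin, the relative of decorin that carries an aspartate repeat, at 2.80-fold lower. Bgn, biglycan, the closest relative of decorin, was 1.84-fold higher, and Ogn, osteoglycin, was 1.25-fold lower. The Bgn difference was 0.39 ± 0.29 above that of Dcn and within error of that of Lum (0.22 ± 0.29).

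**Figure D3:**
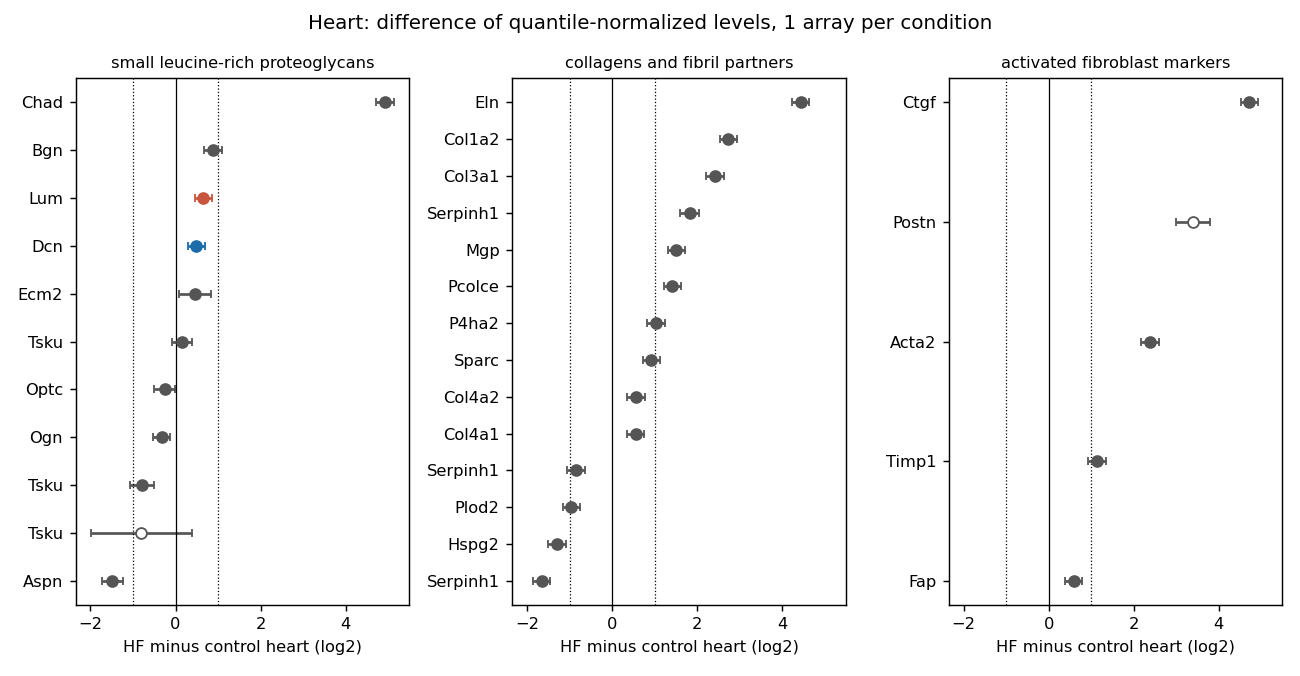
HF minus control heart on the log2 scale for each named probe of 3 gene lists, 1 array per condition, with Dcn in blue and Lum in red. Bars are the combined spot errors, filled points were detected on both heart arrays, dotted lines mark a 2-fold difference, and a gene with several probes appears once for each. Dcn (0.49) and Lum (0.66) lie inside the dotted lines, whereas Eln, Col1a2, Col3a1, Ctgf and Acta2 all lie beyond 2.

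Few of the proteins that act on or with decorin and lumican had a named probe. Of 14 signalling partners 4 had one. Egfr, a receptor kinase bound by decorin, was 2.19-fold higher in HF heart, and Tgfbr2, the type II receptor of transforming growth factor-β, was 1.90-fold lower. Tgfb3, one of its ligands, was undetected in control heart. Its lower bound in HF heart was 3.18-fold on the quantile scale, 1.67-fold on the deposited signals and 1.34-fold with normexp. The fourth was Ctgf. Of 18 proteases and inhibitors 4 had a probe. Bmp1, the procollagen C-proteinase, was 1.62-fold higher and Mmp15, a membrane-type metalloproteinase, 2.08-fold lower, beside Timp1, and Mmp12, macrophage elastase, was not above background in HF heart. None of the 23 enzymes of glycosaminoglycan chain synthesis was among the named probes held here.

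The whole blood comparison asks how these mRNAs differ between the blood of HF and control mice. Where a signal in blood came from was not tested. Lum was detected in HF whole blood, at 65.6 times the 95th percentile of the negative control spots, and not in control whole blood, at 1.36 times. The lower bound of the difference was 14.7-fold on the quantile scale and 7.51-fold on the deposited signals. Dcn was 2.05-fold higher on the quantile scale, a log2 difference of 1.04 ± 0.20, and so 1 of the 2 probes was called higher and 0 lower, where 21.4% of all 11938 probes detected on both arrays were called higher and 26.8% lower (20.1% and 27.6% of 2212 named mRNA probes). The Dcn call held under the quantile normalizations and normexp, at up to 1.07 and thus close to the threshold. It did not hold without normalization, where the deposited signal was 1512 in HF against 1761 in control (a ratio of 0.858), with scaling to the 75th percentile (0.36) or with scaling to the median of probes detected on all 6 arrays (0.55).

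Lum was one of many probes that were detected in the whole blood of HF mice only. The same held for 7 of the 14 probes of collagens and fibril partners and for 13 of the 16 cardiomyocyte probes, where 9.78% of all probes of the array were detected in HF whole blood only. Nppa, which encodes the atrial natriuretic peptide, exceeded control by at least 287-fold on the deposited signals, Tnni3, cardiac troponin I, by at least 36.2-fold, Pcolce by at least 18.0-fold and Col3a1 by at least 5.31-fold. On the quantile scale these bounds were higher, at 854-, 92.7-, 39.7- and 9.79-fold. The summed signal of the cardiomyocyte list was nevertheless 45684 in HF and 37535 in control, since the Myh6 probe alone gave 36960 in control whole blood. Their part in the Lum result was not tested, and the scan session moved with the same comparison.

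The Lum signal in HF whole blood was 2.60 ± 0.37% of its signal in HF heart, both as deposited and scanned in the same session. Among the other probes that were above background in HF heart and HF whole blood but not in control whole blood, the 7 of collagens and fibril partners were at a median of 2.29% (from 1.43% to 85.7%) and the 13 of cardiomyocytes at a median of 3.20% (from 1.67% to 20.1%). The 3 of the other small proteoglycans were at a median of 2.69% (from 2.06% to 11.3%). Over all 2690 probes that met the same condition, the median was 13.7% and the quartiles were 3.75% and 81.2%. Lum was near Col3a1 (1.84%), Col4a2 (2.29%), Eln (2.57%) and Pcolce (2.99%). Probes entered this set by being above background in HF whole blood, so a probe that was dim in heart had to have a high percentage, and the values are a description. Dcn differed, at 58.9 ± 8.3% in HF and 66.1 ± 9.4% in control whole blood.

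**Figure D4:**
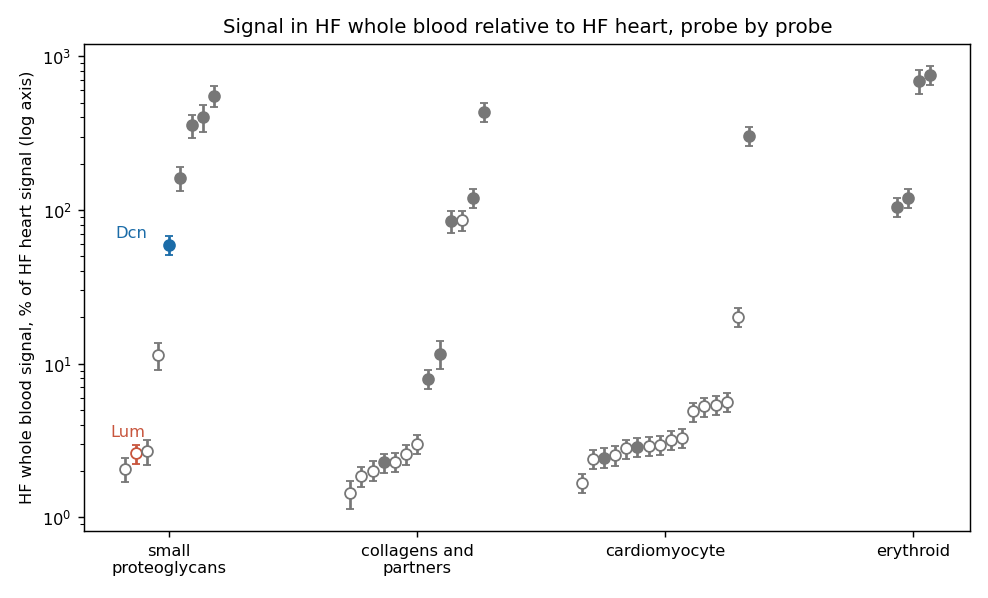
Deposited signal in HF whole blood as a percentage of that in HF heart, on a log axis, for the probes of 4 gene lists that were above background on both arrays. Open points were not above background in control whole blood, filled points were, and bars are combined spot errors. Lum (2.60%) lies among collagen and cardiomyocyte probes near 2% to 3%, and Dcn (58.9%) lies above most of them and below the erythroid probes, which are above 100%.

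In control whole blood, Dcn had a signal that most other fibroblast genes lacked. Of 6 fibroblast probes, those of Dcn and Fap were above background there, and those of Lum, Col1a2, Col3a1 and Thy1 were not. Such a signal was not particular to Dcn among matrix genes. It was also seen for 7 of the 14 collagen and partner probes and, Dcn included, for 6 of the 11 small proteoglycan probes. On the quantile scale Dcn was 1.59-fold lower in control heart than in control whole blood and 2.33-fold lower in HF heart than in HF whole blood. The order of heart and whole blood turned with the scaling, since the deposited Dcn signal was 1.51-fold and 1.70-fold higher in heart. For Lum the order did not turn. Control heart was at least 115-fold above control whole blood and 57.3-fold above control plasma, and HF heart was 12.4-fold above HF whole blood and at least 241-fold above HF plasma, all on the quantile scale. On the deposited signals these values were at least 256-fold, 180-fold, 38.5-fold and at least 829-fold. With normexp the bounds were lower, at 61.6-fold against control whole blood and 122-fold against HF plasma.

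Markers of the eye were examined because of how blood was taken. Kera and Krt12, which mark the cornea, had no named probe here. Of 7 eye probes, 5 passed the background flag in whole blood of control mice and 6 in that of HF mice, with summed signals of 2849 and 1605, and 7 and 6 of them also passed it in control and HF heart. The lens crystallin Crygc was at 10.26 in the control and 10.17 in the HF array of whole blood, and the lens filament gene Bfsp1 at 9.91 and 9.78. The other 2 eye probes detected on both whole blood arrays were called higher in HF, Mip, the lens water channel, by 2.22-fold and Optc, the eye proteoglycan opticin, by 2.23-fold. Their part in the Dcn and Lum signals of blood was not tested.

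In plasma both genes were lower in HF. Dcn was 9.49-fold lower, a log2 difference of -3.25 ± 0.21. Lum was undetected in HF plasma and at least 2.66-fold lower on the quantile scale, 4.07-fold on the deposited signals and 2.29-fold with normexp. Thus 1 of the 2 probes was called lower and 0 higher, where 25.6% of all 12377 probes detected on both plasma arrays were called lower and 32.1% higher (23.7% and 32.8% of 2232 named mRNA probes). Only 7.24% of those probes had a lower difference than Dcn. The direction was the same under every scaling tried for both genes, with Dcn between -4.20 and -2.81.

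The direction in plasma was opposite to that of the proteoglycan Tsku, tsukushi, whose 3 probes were 29.1-, 31.5- and 151-fold higher in HF plasma. Over the whole family 8 probes were detected on both plasma arrays, of which 4 were called higher and 2 lower, with a median of 0.48. Over all probes 32.1% were called higher and 25.6% lower, so the count called lower was near that share. The lower calls were Dcn and Chad (5.04-fold), and the higher ones were Ogn (2.07-fold) and the Tsku probes. Genes of red cells and platelets were also lower in HF plasma. The summed signal of the 4 erythroid probes was 852140 in control plasma and 4755 in HF plasma, and Hbb-b1, a β-globin, was 945-fold lower. Gp5, a platelet glycoprotein, was 148-fold lower, whereas the summed leukocyte signal was 3547 in control and 3411 in HF plasma. Their part in the Dcn and Lum difference was not tested.

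In the control mice, Lum was detected in plasma but not in whole blood, both scanned in the same session, and was at least 2.01-fold higher in plasma on the quantile scale and at least 1.42-fold on the deposited signals. Bgn, Chad and Ogn were also detected in plasma alone, so 4 of the 11 proteoglycan probes were detected in control plasma alone and 0 in control whole blood alone. Col1a2, Pcolce and 1 Serpinh1 probe did so among 14 collagen and partner probes, and Ctgf and Postn among 5 activated fibroblast probes. Cardiomyocyte probes did so too, with 4 of 16, all of Tnnt2, detected in control plasma alone, whereas 0 of 7 eye probes did. Over the array 9.92% of the 59729 probes were detected in control plasma alone, and only 845 probes in control whole blood alone. The background of control whole blood was higher, with a 95th percentile of the negative control spots of 17.2 against 6.53 in control plasma. The brightest negative control spot of control plasma read 61.6, and the Lum signal there was 1.41 times that. The deposited signal of Bgn was in fact 33.3 in control whole blood and 30.2 in control plasma, whereas that of Lum was 23.4 and 86.9. Dcn did not share the pattern, with nearly equal deposited signals of 1768 in control plasma and 1761 in control whole blood.

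Dcn and Lum lie side by side on chromosome 10 in the RefSeq annotation of the mouse, followed by the noncoding gene 4930473O22Rik and by Kera, keratocan. Their profiles over the 6 arrays were not alike, with a Pearson r of 0.44, and Lum stood 1014th of 3469 gene symbols in likeness to Dcn. The gene most like Lum was Pcolce (r of 0.995), followed by Cbr2, a carbonyl reductase (0.99), then Dscr3, Med22 and Pid1, each at 0.99. The genes most like Dcn were Ccna2, a cyclin, and Alox5ap, the protein that activates 5-lipoxygenase, both at 0.99, then Rbp4, a retinol carrier (0.99), the α-globin gene Hba-a2 (0.98) and the kinase Map2k3 (0.97). All of these 5 were lowest in HF plasma, as Dcn was. These coefficients describe 6 arrays of 3 tissues, where a single array such as HF plasma can set the value, and with ranks in place of levels 0 of the 5 genes stayed the same for either.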

How the data were processed

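Total RNA of 6 mixtures was hybridised to 1-colour microarrays that carry LncRNA and mRNA probes. The deposited intensity values are those that the authors obtained from the images in Feature Extraction (version 11.0.1.1), corrected for background but not scaled to each other. The deposited table of the series held the same intensities, with 0 spots that differed at a tolerance of 0.001. Groups follow the sample labels, and dose, duration and mixing follow the methods, which state quantile normalization and a 2-fold filter. Control spots were left out and log2 intensities, averaged where a probe has several spots, were quantile normalized across the 6 arrays. A call required detection in both mixtures of a tissue and a difference of 2-fold or more. Where a gene was not well above background on 1 array, its fold is a lower bound, taken against the lowest level of a probe well above background or its own level, whichever was higher.

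Gene names came from the section of the mRNA profile table held here, of which 3977 of 4093 accessions matched RefSeq (GRCm38.p6). Members and gene lists were chosen with earlier results of these data known, so a pattern in them is a description. Named genes are Dcn, Lum, any list member with a probe, and the 5 genes with the highest Pearson r. The lists for glycosaminoglycan synthesis and hepatocytes had no named probe. Skin and adipose, and mural and endothelial markers are given in the closing section. Alternatives were scaling to the 75th percentile, no scaling, quantile normalization within each tissue pair or within heart and blood sets, normexp (offset 50, on the median intensity), other detection filters, and folds of 1.5 and 4. Scaling to the median of probes detected on all 6 arrays was added after seeing the data. The steps were tested on simulated arrays. With 1 array per group, precision is limited by the number of arrays, and the median spot error of detected probes was 10.5% to 11.4%. Python 3.11.15, numpy 2.4.6, pandas 2.3.3, R 4.3.3 and limma 3.58.1 were used.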

Additional observations from a re-analysis of the deposited data

Results flagged for a closer look

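The HF minus control differences of both genes ran in opposite directions in plasma and in the other tissues. For Dcn the log2 difference was 0.49 in heart and -3.25 in plasma, 3.73 apart, and 1.04 in whole blood, 4.28 above plasma. For Lum it was 0.66 in heart and -4.16 in plasma, 4.82 apart, and 5.38 in whole blood, 9.54 above plasma. With 1 array per condition these differences between tissues were not tested. Lum was not above background in control whole blood or HF plasma, so that only its bounds hold (on the quantile scale, a bound of 14.7-fold upward in whole blood and of 2.66-fold downward in plasma) and the Lum values of 4.82 and 9.54 measure a signal against a background reading, and the Dcn signs in heart and whole blood turned without normalization between arrays.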

How the results depend on the processing

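No paired analysis was possible because each condition was 1 array, and no array was left out for the same reason. Of 204 alternative values, 127 stayed the same, 69 moved and 8 turned, and where no construction is named below the cause was not tested. All log2 values follow the order heart, whole blood and plasma for HF minus control.

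Without normalization between arrays, Dcn was at -0.053, -0.22 and -4.20 and Lum at 0.18 and 4.29 in heart and whole blood. Heart minus blood then turned to 0.60 (control whole blood), 0.59 (control plasma) and 0.76 (HF whole blood) for Dcn, with 4.74 for HF plasma, and was 9.38, 7.49 and 5.27 for Lum. With scaling to the 75th percentile Dcn was at 0.86, 0.36 and -3.47 and Lum at 1.09 in heart, and HF heart minus HF whole blood was 0.00016 for Dcn and 4.50 for Lum, with 3.41 for Dcn in HF heart minus HF plasma. With the median of probes detected on all 6 arrays, chosen after seeing the data, Dcn was at 1.25 and 0.55 in heart and whole blood and Lum at 1.48 in heart. Heart minus blood was then 0.16, -0.21, 0.86 and 4.09 for Dcn, and 6.69 (control plasma) and 5.37 (HF whole blood) for Lum. With normexp, which raises dim signals, Dcn was at -2.81 in plasma and 2.40 in HF heart minus HF plasma, and Lum at 3.07 in whole blood, -1.29 in plasma, and 5.95, 5.06 and 7.02 in heart minus control whole blood, control plasma and HF plasma.

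Of the small proteoglycans, 1 probe was higher and 1 lower in HF heart, and the count higher was 3 with the 75th percentile, 4 with the median scaling, 0 over probes detected on all 6 arrays and 3 at 1.5-fold. The count lower was 3 without normalization, 0 with normexp, 2 at 1.5-fold and 0 at 4-fold. In whole blood 4 were higher, and 2 with the 75th percentile, 1 without normalization, 7 with the weaker detection flag, 7 with no detection filter and 0 at 4-fold. The count lower there was 0, and 2 without normalization, 1 with the weaker flag, 1 with no filter and 2 at 1.5-fold. Over probes detected on all 6 arrays, 2 were higher and 1 lower in plasma. Of the collagens and partners, 7 were higher in HF heart, and 4 without normalization, 1 over probes detected on all 6 arrays and 3 at 4-fold. The count lower was 2, and 4 without normalization, 1 with normexp, 0 with the median scaling, 1 over probes detected on all 6 arrays, 4 at 1.5-fold and 0 at 4-fold. In whole blood 2 were higher, and 1 without normalization, 4 with the weaker flag, 9 with no filter and 1 at 4-fold. The count lower was 1, and 2 with the 75th percentile, 3 without normalization, 2 with the median scaling, 0 over probes detected on all 6 arrays, 3 at 1.5-fold and 0 at 4-fold. In plasma 4 were lower with no filter. Of the 5 genes most like Dcn, 0 were shared with Spearman's rho and 1 with the 75th percentile, and of those most like Lum 0 were shared with Spearman's rho. Signals near background limit the Lum values in control whole blood and HF plasma.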

Other observations

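Of 6 mural and endothelial probes 5 were detected on both hearts, of which 2 were called higher, 1 lower and 2 were under 2-fold. Their median was -0.13, and over all probes 13.9% were called higher and 12.9% lower. The lower call was Rgs5, a pericyte gene, 10.2-fold lower in HF. The higher calls were the 2 probes of Pecam1, an endothelial adhesion molecule, at 3.50- and 4.80-fold. Pdgfrb and Des did not follow Rgs5, at -0.21 and -0.13. Of 4 skin and adipose probes 1 was detected on both hearts, Krt4, at -0.63, and in plasma Krt4 was 7.19-fold higher in HF while Krt16, a keratin, was at -0.06. Fap, which serves as a fibroblast marker, had a level of 6.83 in control heart and of 12.66 in control whole blood.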
